A study of Mus musculus with 30 samples.

Results

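Solute carriers are the membrane proteins that move ions, sugars, amino acids, peptides, organic anions and metabolites across cell and organelle membranes, and the genes described here are those of the Slc and Slco families on arrays of mouse kidney RNA. Their probe sets (the groups of oligonucleotides that measure 1 target) were those of both deposited tables whose annotated symbol, brought up to date, begins with Slc or Slco and a number, with Slc34a1 and Slc25a20 left out. That gave 141 probe sets of 112 genes, 109 on the first table and 32 on the second, among 13047 probe sets and 6136 named genes in all. Another 4 probe sets carry several symbols of which 1 is a carrier, and were not used. The symbols of Slc9a3r1, a scaffold protein that binds carriers, and Slc4a1ap, which binds an anion exchanger, also meet the rule although neither is a carrier.

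Kidneys of C57BL/6 mice were profiled in 3 groups of 5: control-fed mice aged 5 months (young control), control-fed mice aged 30 months (old control), and calorie-restricted mice aged 30 months. The study asked for the effect of ageing, old control against young control, and for that of the diet, calorie-restricted old against old control. Each of the 15 numbered RNA samples was hybridised to both array types, 30 samples in all. They are called animals here, but nothing in the labels says that each number is a separate mouse, so the tests measure the spread between these samples. Neither the sex of the mice nor the extent and start of the restriction is stated in the labels.

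In the nephron, transport depends on which side of the cell a carrier sits. Carriers of the apical membrane take solutes out of the forming urine, those of the basolateral membrane pass them to or from the blood, and the Slc25 family exchanges metabolites and nucleotides across the inner mitochondrial membrane in cells that are among the most mitochondria-rich of the body. Proximal tubule cells reclaim most sugars, amino acids and phosphate and secrete organic anions, whereas the thick ascending limb and distal convoluted tubule reabsorb salt.

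A level here is an intensity scaled to the common trimmed mean of its table. The floor, the root mean square of a table's negative values, was 1103 for the first table and 1815 for the second. Of the 141 probe sets, 71 of 59 genes were above the floor on at least 5 of 15 arrays and were tested, 45 were above it on all 15, and 57 on none. The member just inside this limit, on 5 arrays, was Slc30a5, a zinc carrier, with group means of 1077, 998 and 491 in young, old and calorie-restricted animals. The member just outside, on 4, was a probe set of Slc25a51, with means of 683, 391 and 1270. Many of the best known tubule carriers, among them Slc5a1, Slc5a2, Slc9a3, Slc13a1, Slc22a8, Slc4a4 and Slc7a9, had no probe set with their symbol in the annotation used here.

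Facts of the series that touch these values are few. The arrays had trimmed means of 1463 to 1504, and the animals of each group carry title numbers 1 to 5, of which numbers 1 to 3 and numbers 4 and 5 differed from each other in every group. The labels do not say what the 2 sets of numbers stand for, so values within each set are given for the genes where the sets differ most. In the second table, 85 tested probe sets have young values that look exchanged between probe sets of 1 target, and none of the carriers is among them. Some markers of other cells also moved with the groups. Of 6 B cell and plasma cell genes on the arrays 3 rose with age and the same 3 (Igha, Ighm and Jchain) were lower with the diet. The shares of all probe sets past the test were 5.16% with age and 2.61% with the diet. Cd79b (0.28 with age and -0.36 with the diet) and Ms4a1 (-0.09 and -0.28) did not pass, and Cd79a was not above the floor. The summed level of the 5 measured was 21000 to 29400 in young, 87100 to 184000 in old and 25500 to 51000 in calorie-restricted animals. Ms4a1, with group means of 19700, 18280 and 15250, made up most of the young sum. Of 9 macrophage genes 4 rose with age and 2 fell with the diet, beside the same shares of all probe sets. C1qc (0.58 with age and -0.48 with the diet) and Cd68 (0.33 and -0.34) passed in neither. The 6 measured summed to 11400 to 17800, 27200 to 38700 and 13100 to 21400, with C1qa, Adgre1 and Csf1r not above the floor. The part of these cells in the carrier values was not tested, and in whole kidney RNA fewer cells of a type and less RNA per cell cannot be told apart.

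No carrier passed the test in either comparison that the labels name. None of the 71 carrier probe sets passed an adjusted p of 0.05 with age, against a background of 5.16% of all 4518 probe sets (limma, Benjamini-Hochberg over both tables), and 6 of 71, or 8.45%, had an unadjusted p under 0.05, where 16.4% of all probe sets did. Without the exchanged probe sets the background was 3.38% with age and 2.55% with the diet. With the diet 0 of 71 passed as well, against 2.61% of all probe sets, and 10 of 71, or 14.1%, had an unadjusted p under 0.05 in the limma fit, against 14.6%. These counts do not show that the carriers stayed the same. With a term for the 2 sets of numbers in the limma fit, 2 carriers passed with age (Slc22a30, adjusted p 0.0466, and Slc22a17, 0.0361) and 1 with the diet (Slc22a23, 0.0205). The share of all probe sets that passed in that fit is not given here, so these counts have no background beside them. For the 45 probe sets above the floor on every array, the 95% interval of the change lay inside 2-fold either way in 43 with age and 41 with the diet, and in 40 with both. It lay inside 1.5-fold in 21, 20 and 15. The probe sets with an interval reaching past 2-fold in either comparison were those of Slc22a17, Slc38a10, Slc51a and Slc6a9 and 1 of the 2 for Slc4a1.

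The class medians lay close to that of all probe sets. With 1 probe set a gene, the brightest, the median log2 change with age was -0.07 over 7 apical carriers, -0.17 over 10 basolateral carriers, 0.06 over 10 mitochondrial carriers and -0.08 over the 31 others, beside -0.04 over all probe sets tested. Of the basolateral carriers 9 had a change below 0 and 1 above, of the apical carriers 5 and 2, and of the mitochondrial carriers 3 and 7. Over all 4518 probe sets tested 2493 lay below 0 and 2025 above. With the diet the medians were 0.15, 0.04, 0.04 and -0.01, beside 0.03 over all probe sets, and the basolateral one turned to -0.01 under quantile normalization and ran from -0.06 to 0.16 when each animal was left out. These are descriptions with no test, and no gene in the 3 classes passed the limma test in either comparison.

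**Figure D1:**
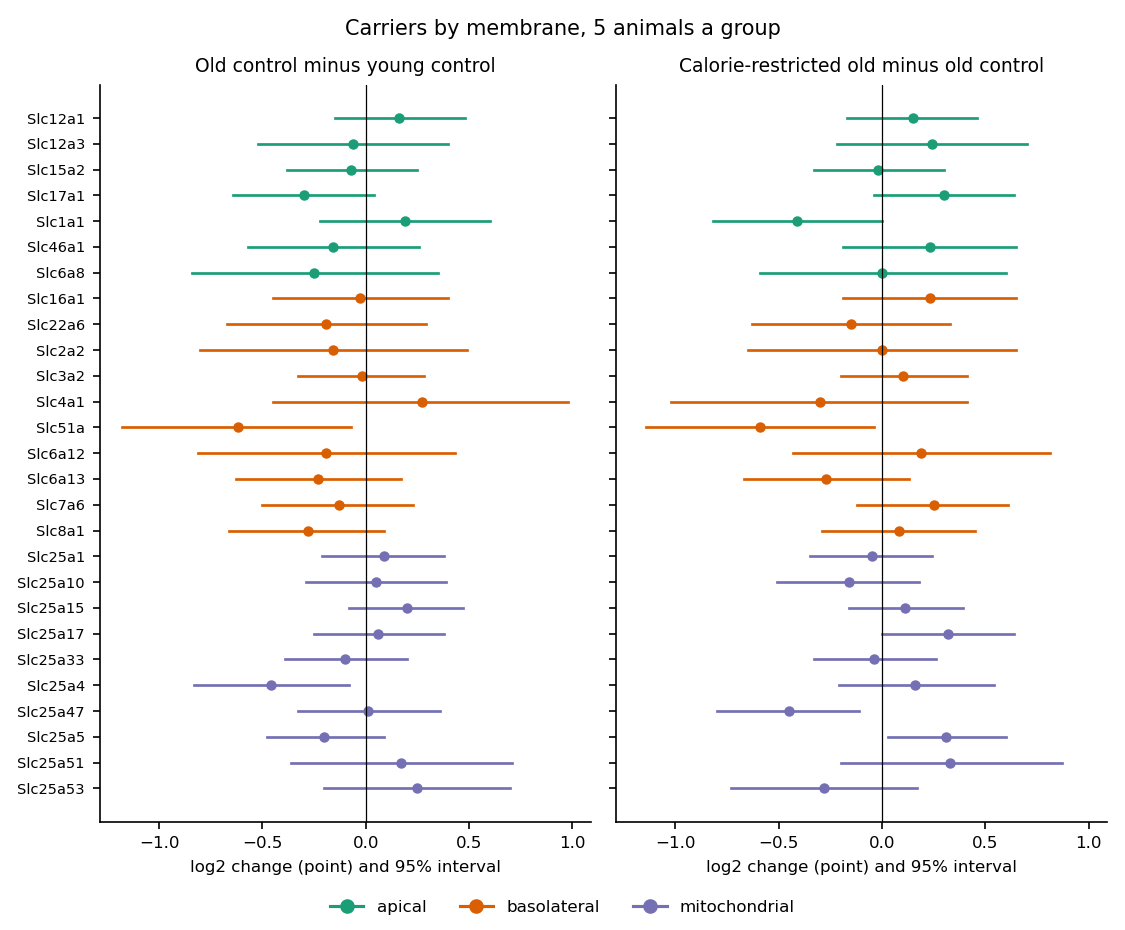
Log2 change (points) with its 95% interval (lines) for the 7 apical, 10 basolateral and 10 mitochondrial carriers measured, with age on the left and with the diet on the right, 5 animals a group. Most intervals cross 0, and Slc51a has the lowest point of the basolateral class in both panels.

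**Figure D2:**
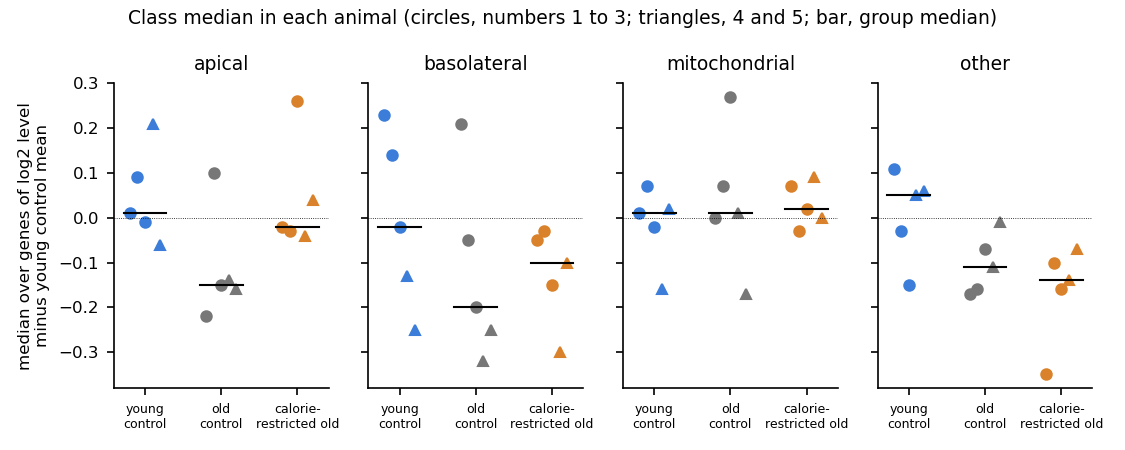
Median over the genes of a class of each animal's log2 level minus the young control mean, with circles for title numbers 1 to 3, triangles for 4 and 5, and bars for the group median. The groups overlap in every class, and the old control medians span -0.22 to 0.10 for apical and -0.32 to 0.21 for basolateral carriers.

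Among the apical carriers, the salt transporters of the distal nephron were well above the floor in every animal. Slc12a1, the sodium-potassium-chloride cotransporter of the thick ascending limb and the target of loop diuretics, read 21679, 18202, 17446, 12879 and 16343 in the young animals, 20494, 20440, 19697, 15446 and 20122 in the old and 20471, 24589, 22566, 21167 and 17731 in the calorie-restricted. The ranges overlap, with animal 4 the lowest of the young and of the old. Its log2 change was 0.16 ± 0.15 (SE, n = 5 a group) with age and 0.15 ± 0.15 with the diet, with adjusted p of 0.657 and 0.696 (limma), and the intervals ran from -0.15 to 0.48 and from -0.17 to 0.46. Slc12a3, the thiazide-sensitive sodium-chloride cotransporter of the distal convoluted tubule, read 9080, 10157, 9579, 6177 and 6069 in young, 9740, 9428, 8367, 4859 and 7192 in old and 10771, 9028, 11401, 6965 and 8019 in calorie-restricted animals. In each group numbers 4 and 5 lay below numbers 1 to 3, by 0.58 log2 units on average, which is more than its change with age (-0.06 ± 0.22, n = 5) or with the diet (0.24 ± 0.22).

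Slc17a1, an apical organic anion and urate carrier of the proximal tubule, had the lowest age change of the class. It read 16121, 21505, 19622, 23304 and 19195 in young animals, 16421, 19361, 14880, 17209 and 13396 in old and 18556, 19429, 14586, 22723 and 25447 in calorie-restricted animals. The old values sit lowest but overlap both other groups. The change was -0.30 ± 0.16 with age (adjusted p 0.392, limma, n = 5) and 0.30 ± 0.16 with the diet (adjusted p 0.42). Within numbers 4 and 5 these were -0.48 and 0.66, and within 1 to 3 they were -0.17 and 0.05.

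The other apical carriers gave small or imprecise differences. Slc1a1, the glutamate and aspartate carrier of the proximal tubule, read 3937, 3953, 4188, 4217 and 3322 in young, 4078, 6071, 5562, 3589 and 3565 in old and 3669, 2259, 4697, 3313 and 3318 in calorie-restricted animals. The old and calorie-restricted values overlap, and the diet change was -0.41 ± 0.19 (adjusted p 0.343, limma, n = 5), or -0.61 among numbers 1 to 3 and -0.11 among 4 and 5. Its second probe set, above the floor on 6 arrays, gave -0.15 ± 0.14. Slc15a2, the high-affinity peptide carrier, had group means of 3489 ± 705, 3301 ± 425 and 3260 ± 365 (SD, n = 5), changes of -0.07 ± 0.15 and -0.02 ± 0.15, and an age interval of -0.38 to 0.25. The folate carrier Slc46a1 gave -0.16 ± 0.20 and 0.23 ± 0.20, and the creatine carrier Slc6a8, which read below 0 on 3 of the 15 arrays, -0.25 ± 0.28 and 0.00 ± 0.28, none of which passed. For Slc6a8 the age change was -0.61 among numbers 1 to 3 and 0.29 among 4 and 5. Slc10a2, a bile acid carrier, was not above the floor.

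**Figure D3:**
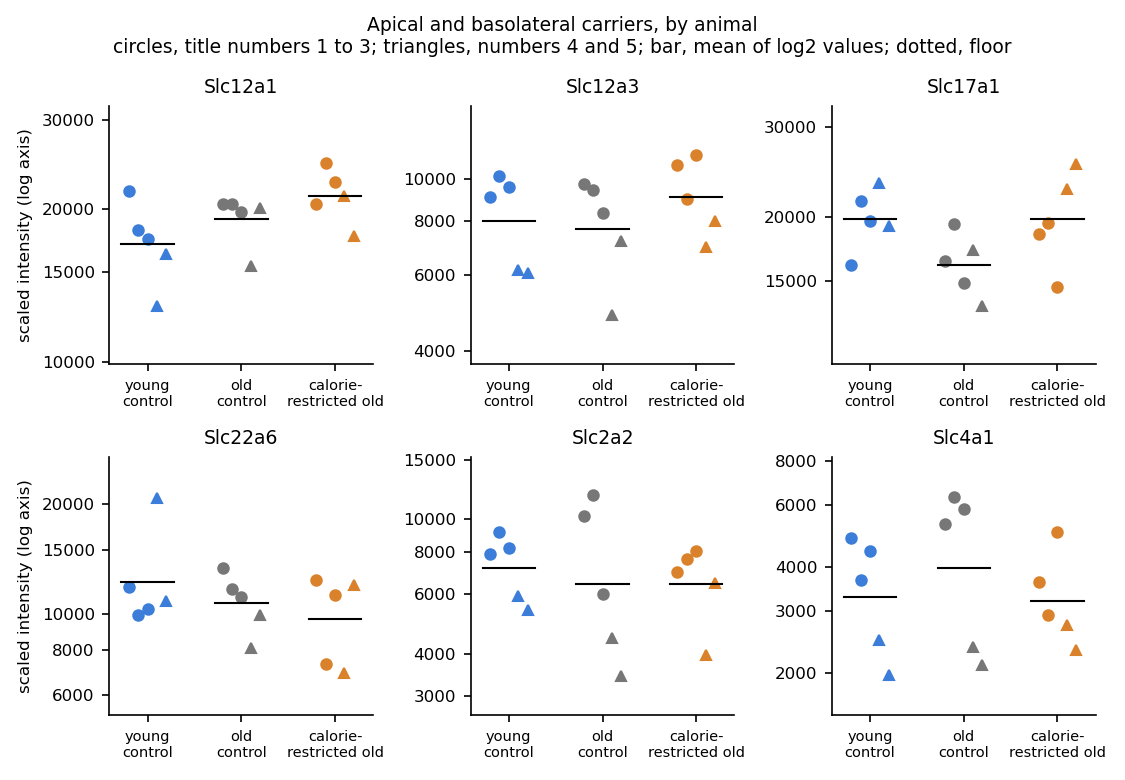
Scaled intensity (log axis, values under the floor drawn at it) of 3 apical (top) and 3 basolateral carriers (bottom) in each of 15 animals, with bars for the mean of the log2 values. The groups overlap in all 6 panels, and triangles (title numbers 4 and 5) lie under circles (1 to 3) in each group for Slc12a3, Slc2a2 and Slc4a1.

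Of the basolateral carriers, Slc51a stood out for its values in single animals. It encodes the alpha subunit of the organic solute transporter, which carries bile acids and steroid conjugates, and its partner subunit Slc51b was not analysed here. It read 2906, 3821, 3576, 3353 and 4408 in the young, 1746, 1299, 1912, 3956 and 3953 in the old, and 1382, 1658, 1717, 1448 and 1536 in the calorie-restricted animals. Old animals 4 and 5 lay within the young range and old animals 1 to 3 below it, while all 5 calorie-restricted animals lay below every young animal. The change was -0.62 ± 0.26 with age and -0.59 ± 0.26 with the diet (adjusted p 0.234 and 0.305, limma, n = 5), so neither passed. Within numbers 1 to 3 the age change was -1.07 and the diet change -0.05, and within numbers 4 and 5 they were 0.04 and -1.41.

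The labels do not name a comparison of calorie-restricted old with young animals, and it was added after the values had been seen. It mixes age and diet. In it Slc51a was 2.32-fold lower (log2 change -1.21 ± 0.26, adjusted p 0.0088, limma, n = 5), with -1.11 and -1.37 in the 2 sets of numbers, and the call was kept under all 31 alternatives run (adjusted p 0.000132 to 0.0414).

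The other basolateral carriers overlapped between groups. Slc22a6, the organic anion transporter that takes up para-aminohippurate and many drugs from the blood, read 11860, 9929, 10344, 20725 and 10836 in young, 13380, 11709, 11124, 8094 and 9970 in old and 12351, 7294, 11297, 6889 and 12041 in calorie-restricted animals. Young animal 4 read far above the rest of its group, and the changes were -0.19 ± 0.23 and -0.15 ± 0.23 (adjusted p 0.752 and 0.82, limma, n = 5). Its age change was 0.17 among numbers 1 to 3 and -0.74 among 4 and 5. Slc2a2, the glucose transporter through which proximal tubule cells release glucose, had means of 7319 ± 1592, 7179 ± 3647 and 6622 ± 1597 (SD, n = 5) on its brighter probe set. Here the set of numbers again gave the larger difference, with numbers 4 and 5 lower by 0.78 log2 units and apart from 1 to 3 in every group, while the changes were -0.16 ± 0.31 and 0.00 ± 0.31. Its other probe set gave -0.18 ± 0.16 and -0.17 ± 0.16, and a set difference of 0.04.

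Slc4a1, the chloride-bicarbonate exchanger of acid-secreting intercalated cells and of red blood cells, was measured by a pair of probe sets whose age changes differed in sign, 0.27 ± 0.34 and -0.20 ± 0.19 (adjusted p 0.767 and 0.686, limma, n = 5). On the brighter of these, numbers 4 and 5 were lower by 0.97 log2 units and apart from 1 to 3 in every group, and the means were 3482 ± 1226, 4390 ± 1996 and 3332 ± 1058 (SD, n = 5). The red cell genes Hba-a1 and Hbb-b2 gave 0.73 and 0.38 with age and -0.48 and -0.49 with the diet, none past the test, and the part of blood in the Slc4a1 values was not tested. Slc3a2, the heavy chain shared by several basolateral amino acid exchangers, read 8125 to 13247 over all 15 animals on its brighter probe set, with changes of -0.02 ± 0.14 and 0.10 ± 0.14 and an age interval of -0.33 to 0.28. The monocarboxylate carrier Slc16a1 gave -0.03 ± 0.20 and 0.23 ± 0.20, the latter being -0.09 among numbers 1 to 3 and 0.71 among 4 and 5. Slc6a12, which brings the osmolyte betaine into cells of the medulla, gave -0.19 ± 0.29 and 0.19 ± 0.29, and its young animals split into 7482, 8133 and 7120 against 3187 and 3478, with an age change of -0.59 among the former numbers and 0.40 among 4 and 5. The sodium-calcium exchanger Slc8a1 gave -0.28 ± 0.18 and 0.08 ± 0.18, the amino acid exchanger subunit Slc7a6 -0.13 ± 0.17 and 0.25 ± 0.17, and the GABA and taurine carrier Slc6a13 -0.23 ± 0.19 and -0.27 ± 0.19, and none of these passed.

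Of the mitochondrial carriers, the ADP/ATP exchangers were well above the floor in every animal. Slc25a4, the form that prevails in heart and muscle, read lower on average in old animals on both tables without passing the test. On the second table it read 13092, 19089, 17271, 13039 and 11846 in young, 14616, 12556, 9613, 9488 and 8172 in old and 13215, 13792, 10922, 10291 and 11758 in calorie-restricted animals. The young and old ranges overlap, with 3 old animals under every young animal. The age change was -0.46 ± 0.18 there and -0.41 ± 0.19 on the first table (adjusted p 0.193 and 0.299, limma, n = 5). The first table's difference lay in numbers 1 to 3, where it was -0.68, against -0.01 in 4 and 5, while the second table gave -0.43 and -0.50. Names of these probe sets end in a letter that marks probes shared by a gene family, so the signals of Slc25a4 and Slc25a5, and of other near-identical copies, may not be separate.

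Slc25a5, the exchanger of proliferating and epithelial cells, was measured by 3 probe sets. The brightest read 37964, 44687, 43821, 51450 and 45513 in young, 35148, 40090, 35807, 47325 and 37083 in old and 40943, 45757, 44993, 54756 and 56815 in calorie-restricted animals. Most calorie-restricted animals lay above most old animals, with overlap. The diet changes on the 3 probe sets were 0.31 ± 0.13, 0.25 ± 0.13 and 0.10 ± 0.17, and the age changes -0.20, -0.12 and -0.08 (lowest adjusted p 0.284, limma, n = 5).

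Carriers of intermediates of the citrate and urea cycles did not pass the test in either comparison of the labels. Slc25a1, which exports citrate, had means of 15770 ± 891, 16780 ± 1569 and 16390 ± 3546 (SD, n = 5), with an age interval of -0.21 to 0.38 on the log2 scale and a diet interval of -0.35 to 0.24. The dicarboxylate carrier Slc25a10 gave 0.05 ± 0.16 and -0.16 ± 0.16, and the ornithine carrier Slc25a15 0.20 ± 0.13 and 0.11 ± 0.13. Against young animals the calorie-restricted value of Slc25a15 was 0.31 ± 0.13, with an interval of 0.04 to 0.58 and an adjusted p of 0.214 (limma, n = 5). The largest diet differences of the class were in lesser known members. Slc25a47, best known from liver, read 1579, 2102, 1790, 2236 and 1914 in young, 1418, 2242, 1756, 2387 and 1995 in old and 1711, 1159, 1370, 1579 and 1287 in calorie-restricted animals, lower in most of these but overlapping both other groups. Its diet change was -0.45 ± 0.16 (adjusted p 0.192, limma, n = 5). Slc25a51, a carrier of NAD, gave 0.33 ± 0.25, and Slc25a17, whose protein sits in the peroxisome although its family is mitochondrial, gave 0.32 ± 0.15. Slc25a53, with no settled substrate, gave 0.25 ± 0.21 with age and -0.28 ± 0.21 with the diet, and the pyrimidine nucleotide carrier Slc25a33 gave -0.10 ± 0.14 and -0.04 ± 0.14.

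**Figure D4:**
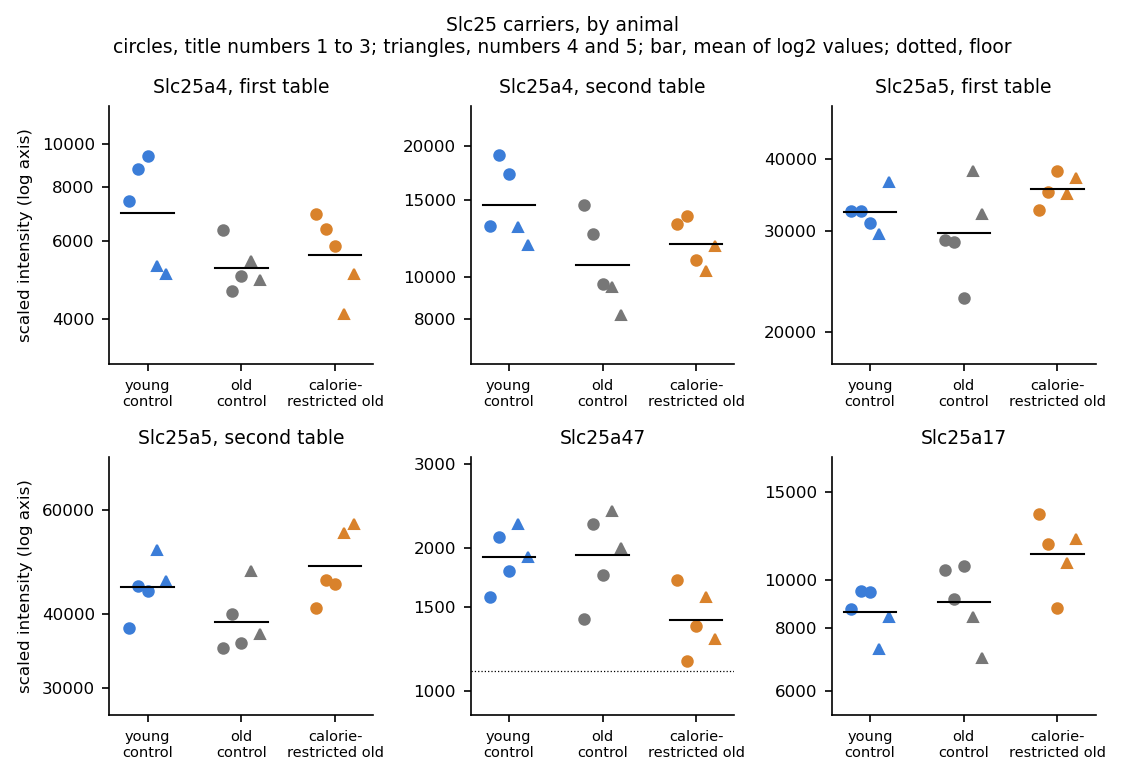
Scaled intensity (log axis, values under the floor drawn at it) of Slc25 carriers in each animal, with Slc25a4 and Slc25a5 shown on both tables, circles for title numbers 1 to 3, triangles for 4 and 5, and bars for the mean of the log2 values. Old animals tend to lie low for Slc25a4 and calorie-restricted animals low for Slc25a47, and the groups overlap in each panel.

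Carriers in none of the 3 classes had the largest differences, and those named from here on were chosen after their values had been seen. Slc22a30, a kidney member of the organic anion transporter family, read 6769, 7190, 7177, 5739 and 8016 in young animals, 4148, 3059, 4010, 3191 and 3145 in old, and 4676, 3641, 973, 1539 and 2027 in calorie-restricted animals. Every old animal was below every young animal, whereas the calorie-restricted range reaches above and below the old. Old animals were 1.99-fold below young animals (SE 0.30 on the log2 scale, adjusted p 0.0723, limma, n = 5), with log2 changes of -0.93 and -1.10 in the 2 sets of numbers, and the change passed in 5 of 31 alternatives, with adjusted p from 0.00118 to 0.352 over all of them. The diet change was -0.62 ± 0.30 (adjusted p 0.348). Calorie-restricted old animals were 3.07-fold below young animals, a log2 difference of -1.62 ± 0.30 (adjusted p 0.00266, limma), and this call was lost only in numbers 1 to 3 alone (-1.41, adjusted p 0.092) among the 31 alternatives.

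In that added comparison 5 of the 71 carrier probe sets passed, or 7.04%, against 5.71% of all probe sets and 3.86% without the exchanged ones, and 15 had an unadjusted p under 0.05 in the limma fit, or 21.1% against 18.1%. By direction 4 were lower, or 5.63% against 2.77%, and 1 was higher, or 1.41% against 2.94%. Besides Slc51a and Slc22a30 they were Slc9a8, Slc35c2 and Slc22a23. Leaving out young animal 2 or 3 or calorie-restricted animal 3 took the count from 5 to 3.

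Slc9a8, a sodium-proton exchanger of the proximal tubule and of intracellular membranes, read 2469, 2033, 2100, 2599 and 1662 in young, 2154, 1566, 1684, 1969 and 1769 in old and 1672, 426, 1474, 728 and 1369 in calorie-restricted animals. The values stepped down from young to calorie-restricted animals with a slight overlap of those groups, and 2 calorie-restricted animals were under the floor, which makes the change a low estimate. It fell by 0.69 on the log2 scale (SE 0.16, adjusted p 0.0126, limma, n = 5) from young to calorie-restricted animals, with -0.24 ± 0.16 for age and -0.45 ± 0.16 for the diet alone. The call was lost in numbers 1 to 3 alone (adjusted p 0.0806) and in 4 and 5 alone (0.231), among 30 alternatives with adjusted p from 0.00709.

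Slc35c2, a nucleotide-sugar carrier relative of the Golgi that promotes fucosylation, read 2396, 2200, 2346, 2006 and 2002 in young, 1628, 25, 338, 1810 and 2129 in old and 664, 424, 204, 1524 and 1773 in calorie-restricted animals. All calorie-restricted animals were below all young animals, and in both old groups the lowest readings were among numbers 1 to 3. The difference from young was -0.76 ± 0.20 (adjusted p 0.0306, limma, n = 5), or -1.07 among numbers 1 to 3 and -0.29 among 4 and 5. It was lost in 10 of 30 alternatives. They were the floor halved (-1.30, adjusted p 0.102), the asinh transform (0.133), no filter (0.0945), numbers 4 and 5 alone (0.477) and the fits without young animal 1, 2 or 3 or calorie-restricted animal 1, 2 or 3, where adjusted p reached 0.0794, and in limma adjusted p ran from 0.00514 to 0.477 over all 30. Old animals 2 and 3 and calorie-restricted animals 1 to 3 were under the floor, so the size of this change depends on the floor.

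Slc22a23, a family member with no settled substrate, was the only carrier higher than in young animals by that test. It read 3304, 2710, 2688, 3323 and 3355 in young, 2701, 2902, 3297, 3430 and 3996 in old and 4150, 3749, 4865, 5090 and 4849 in calorie-restricted animals. Young and old animals overlap, all calorie-restricted animals lie above all young animals, and 1 old animal reaches into their range. The difference from young was 0.56 ± 0.14 (adjusted p 0.0227, limma, n = 5), that from old controls 0.48 ± 0.14 (adjusted p 0.0894, or 0.0205 with a term for the set of numbers) and the age change 0.08 ± 0.14. The call against young animals was lost in 7 of 31 alternatives, numbers 1 to 3 alone (adjusted p 0.0754 in limma), 4 and 5 alone (0.126) and those without young animal 2 or 3 or calorie-restricted animal 3, 4 or 5, where adjusted p was 0.0559 to 0.0713, and it ran from 0.00418 to 0.126 over all 31.

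**Figure D5:**
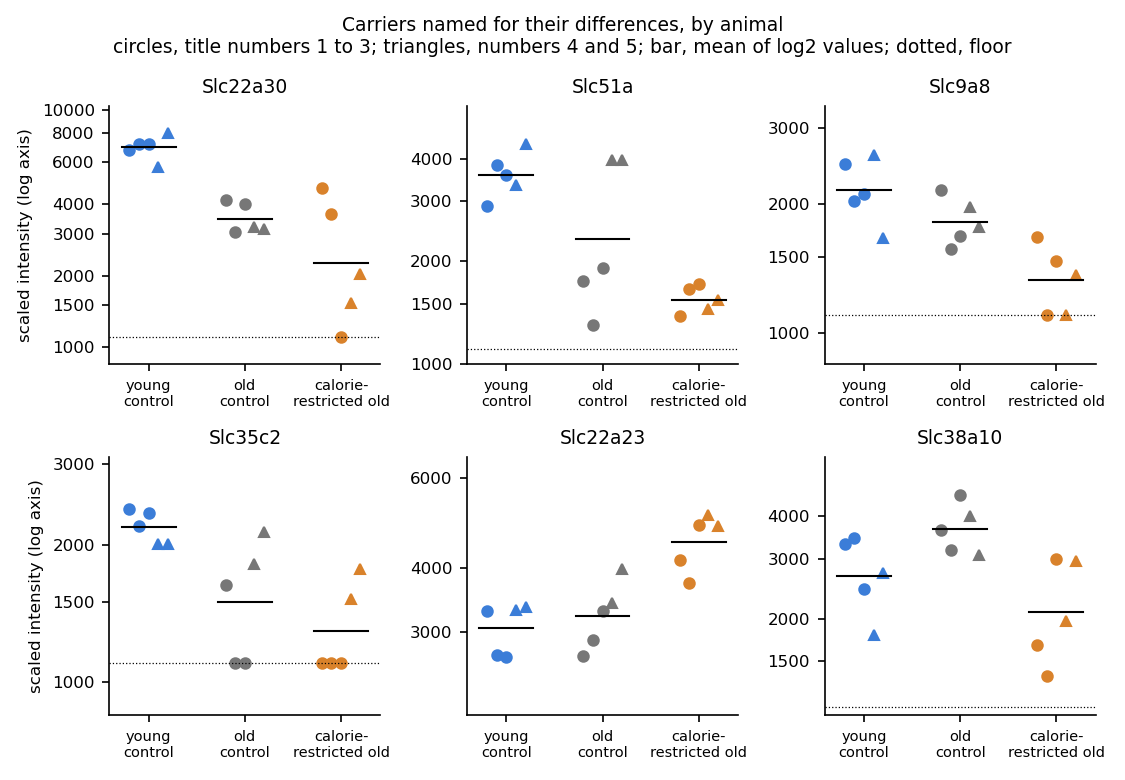
Scaled intensity (log axis, values under the floor drawn at it) of 6 carriers in each animal, circles for title numbers 1 to 3, triangles for 4 and 5, bars for the mean of the log2 values. Calorie-restricted animals lie under all young animals for Slc22a30, Slc51a and Slc35c2 and above them for Slc22a23, and old animals 4 and 5 lie with the young for Slc51a.

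Upstream sequence is shown for 3 of these 5 genes, the pair with the lowest values against young animals and the gene that rose, because they differ in the short motifs of their promoters. Each run is the 250 bases before a start site in RefSeq (GRCm38.p6), read 5′ to 3′ on the gene's own strand, and capitals mark matches on either strand to 5 motifs searched: GTTAAT (a hepatocyte nuclear factor 1 half-site), CACGTG (an E-box), GGGCGG (a GC box), TATAAA and CCAAT. Slc51a lies at chr16:32487880-32488129 on the minus strand, Slc22a30 at chr19:8405106-8405355 on the minus strand and Slc22a23 at chr13:34345219-34345468 on the minus strand.
Slc51a: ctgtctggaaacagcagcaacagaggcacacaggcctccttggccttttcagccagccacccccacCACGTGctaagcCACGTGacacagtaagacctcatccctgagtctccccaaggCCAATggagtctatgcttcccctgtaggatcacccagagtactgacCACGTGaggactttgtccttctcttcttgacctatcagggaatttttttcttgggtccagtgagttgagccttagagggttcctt
Slc22a30: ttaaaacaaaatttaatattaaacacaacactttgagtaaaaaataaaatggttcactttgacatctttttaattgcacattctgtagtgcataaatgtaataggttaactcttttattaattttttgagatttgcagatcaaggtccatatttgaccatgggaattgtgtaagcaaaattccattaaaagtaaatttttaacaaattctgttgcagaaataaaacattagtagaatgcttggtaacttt
Slc22a23: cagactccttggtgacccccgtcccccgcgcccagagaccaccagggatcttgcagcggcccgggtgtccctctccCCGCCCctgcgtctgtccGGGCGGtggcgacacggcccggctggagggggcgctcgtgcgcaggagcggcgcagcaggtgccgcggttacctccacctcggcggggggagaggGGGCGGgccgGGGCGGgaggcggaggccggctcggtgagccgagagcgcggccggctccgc

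The Slc51a run holds 3 E-boxes and 1 CCAAT and is 53.2% G and C, the Slc22a30 run holds none of the 5 motifs and is 25.6% G and C, and the Slc22a23 run holds 4 GC boxes and is 78.4% G and C. GC boxes were not confined to the gene that rose. The runs not shown, of Slc9a8 and Slc35c2, which were lower than in young animals, hold 2 GC boxes for Slc9a8 and 1 in each run of Slc35c2. The E-box was added to the search after the Slc51a sequence had been seen. Over 69 promoters of 52 measured carrier genes with an entry, 11.6% held an E-box, beside 6.02% of all 32851 promoters of that length. A GC box was in 53.6% beside 32.7%, TATAAA in 1.45% (only Slc12a3) beside 12.4%, CCAAT in 33.3% beside 33.8% and the half-site in 4.35% beside 6.43%. The background takes in promoters of genes not measured here, and shares over the measured genes alone are not given. These matches describe the letters of the window and bear on no factor's binding.

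Other carriers came near the threshold. For Slc31a1 the calorie-restricted value against young animals was -0.46 ± 0.14 on its brighter probe set (adjusted p 0.0667, limma, n = 5). It passed with the floor doubled (0.0418), with the set term (0.0448) and without young animal 5 (0.0167). The other probe set of Slc31a1 gave -0.07 ± 0.12 (adjusted p 0.794). Slc22a17, a receptor for the iron-binding protein lipocalin 2, read 1930, 1853, 1182, 2058 and 1806 in young, 2743, 3924, 5235, 2624 and 2297 in old and 4166, 4451, 4663, 2029 and 1851 in calorie-restricted animals. All old animals lie above all young animals, and numbers 4 and 5 lie below 1 to 3 in both old groups. The age change was 0.89 ± 0.29 (adjusted p 0.108, or 0.0361 with a term for the set of numbers, limma, n = 5), or 1.25 among numbers 1 to 3 and 0.35 among 4 and 5, and the diet change was -0.01 ± 0.29. Calorie-restricted animals were above young animals by 0.87 ± 0.29 (adjusted p 0.102, limma), which passed in 3 of 31 alternatives, with adjusted p from 0.00873 to 1 over all of them. Those were the set term (0.0343), numbers 1 to 3 alone (1.45, against 0.01 in 4 and 5 alone) and the fit without calorie-restricted animal 5 (0.0399). Slc38a10, an amino acid carrier relative found in many tissues, read 3310, 3461, 2452, 1794 and 2730 in young, 3656, 3175, 4615, 4001 and 3082 in old and 1679, 1354, 2991, 1968 and 2950 in calorie-restricted animals. Every calorie-restricted animal was below every old animal, and the diet change of -0.81 ± 0.23 had an adjusted p of 0.0837 (limma, n = 5), which passed only without calorie-restricted animal 3 (0.0448) among 31 alternatives.

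Slc6a9, a glycine carrier, read 4838, 4952, 4984, 4974 and 2520 in old animals and 7003, 7857, 6522, 6424 and 5104 in calorie-restricted animals. These groups do not overlap, but the young animals, at 6454, 3864, 3760, 6621 and 7666, span both. The diet change was 0.60 ± 0.23 (adjusted p 0.244, limma, n = 5), with 0.53 and 0.69 in the 2 sets, whereas the age change was 0.12 among numbers 1 to 3 and -1.01 among 4 and 5. Slc9a3r1, the scaffold that holds phosphate carriers and the apical sodium-proton exchanger in the brush border, gave 0.56 ± 0.19 with the diet (adjusted p 0.151, limma, n = 5), of which 0.95 in numbers 1 to 3 and -0.03 in 4 and 5. The taurine carrier Slc6a6 was measured by 3 probe sets, with diet changes of 0.26 ± 0.20, 0.42 ± 0.24 and 0.36 ± 0.28, none past the test. Slc27a2, a fatty acid carrier and acyl-CoA synthetase of the proximal tubule, read 46817 to 86597 over the 15 animals on its brighter probe set. The changes there were 0.01 ± 0.19 with age and 0.04 ± 0.19 with the diet. Its other probe set gave -0.10 ± 0.12 and -0.18 ± 0.12. On that probe set calorie-restricted against young animals gave -0.27 ± 0.12 (adjusted p 0.251, limma). Slc5a11, a myo-inositol cotransporter, read 2640 to 6864, with changes of 0.20 ± 0.25 and 0.04 ± 0.25 and numbers 4 and 5 higher by 0.62.

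Channels, pumps, binding proteins and regulators that work beside these carriers were counted from a list of 56 genes. Of these 15 were found on the arrays by symbol and 13 were measured. The list also names Nherf1, another symbol of Slc9a3r1, which the annotation used here lacks. Slc9a3r1 is therefore in neither the 13 nor their medians. It gave -0.38 ± 0.19 with age and 0.56 ± 0.19 with the diet, and neither passed. With age 2 of the 13 passed, against 5.16% of all probe sets, both lower: Calb1, the calcium-binding protein of the distal convoluted tubule, changed by -0.67 ± 0.17 (adjusted p 0.0265, limma, n = 5), and S100g, a smaller calcium-binding protein of the same segment, by -0.66 ± 0.18 (adjusted p 0.0496). None of the 13 passed with the diet in the limma fit, where 2.61% of all probe sets did. The apical scaffold Pdzk1 just missed the threshold with age at -0.46 ± 0.13 (adjusted p 0.0545, limma). The list's median was -0.13 with age and 0.25 with the diet, beside -0.04 and 0.03 over all probe sets. The 5 proximal tubule markers measured had medians of -0.27 and 0.15, and none of them passed in either comparison. Their summed levels were 244000 to 402000 in young, 170000 to 344000 in old and 226000 to 299000 in calorie-restricted animals. Kap and Ass1 made up most of this sum. Group means of Kap were 141500 ± 57000, 117200 ± 51710 and 123600 ± 44280 (SD), and those of Ass1 were 99260, 82410 and 90690. With age Ass1, Fbp1 and Kap gave -0.27, -0.41 and -0.30, and Aqp1 and Cubn gave 0.02 and 0.29. Against young animals only Fbp1, an enzyme of glucose synthesis, passed in the calorie-restricted (-0.64 ± 0.14, adjusted p 0.0108, limma, n = 5), where 5.71% of all probe sets did. There Ass1 and Kap gave -0.12 and -0.20, and Aqp1 and Cubn 0.39 and 0.49. Of 3 measured markers of the loop, distal tubule and collecting duct 2 fell with age, against 5.16% of all probe sets. They were Calb1 and Egf (-0.39 ± 0.11, adjusted p 0.0395, limma), while the third, Umod, gave 0.22 ± 0.20 (adjusted p 0.673) on its brightest probe set. Another probe set of Umod gave -0.05 with age and -0.15 with the diet, and passed in neither. Egf, a growth factor made in the distal nephron, rose with the diet (0.45 ± 0.11, adjusted p 0.0331, limma), where 2.61% of all probe sets passed. With the diet Calb1 (0.39 ± 0.17) and Umod (0.09 ± 0.20) did not pass. The summed level of the 3 markers was 60500 to 68000 in young, 47100 to 60600 in old and 64300 to 77200 in calorie-restricted animals. Egf, with group means of 45680, 34900 and 47460, made up most of this sum. Umod had means of 15040, 18120 and 18600, and Calb1 of 3112, 1950 and 2577. The part of these markers in the carrier values was not tested.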

How the data were processed

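Total RNA from the kidneys of 15 animals was hybridised to 2 oligonucleotide array types, with groups and numbers read from the titles. Whole-number intensity values for each probe set, some of them negative, were deposited, and their nearly equal array means show that the authors had scaled them. Software and background step: not given in the sources used here. To these values a factor per array was applied that equalised, within a table, the mean left after 2% had been trimmed from each end (control rows included). Values under the floor were set to it, and log2 was taken. Controls were not tested, and 77 rows of the first table blank on young arrays were dropped. Tested were 2609 and 1909 probe sets above the floor on at least 5 arrays, the tables being stacked by group and number. A single linear model of all 3 groups was used (limma 3.58.1, lmFit and eBayes, R 4.3.3), and p-values of both tables were adjusted jointly (Benjamini-Hochberg, 0.05). A change near the floor is understated.

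Platform annotation gave 7561 probe sets 1 symbol, and a RefSeq table (GRCm38.p6) updated 7544 of these through the gene number, and no carrier's symbol changed. The levels of different probe sets are not compared. For each gene with several, medians use the brightest.

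Genes named were those past the threshold in either comparison of the labels, in each class the 4 with the highest mean level and the 2 largest rises and falls per comparison, and a fixed list of 35 carriers, of which 15 were on the arrays and 13 measured (Slc7a8 and Slc25a13 were not above the floor). The members and lists were chosen with earlier results of these data known. Scripts were tested on simulated data. Alternatives varied scaling, floor, transform, filter, moderation, samples, tables and blocks. The number of arrays limits the precision.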

Additional observations from a re-analysis of the deposited data

Results flagged for a closer look

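Readings of 34 of the genes named were checked for an animal that stood apart from its group of 5. The measure, taken on the log2 scale, was the gap to its nearest neighbour as a share of the range (Dixon's 95% limit, 0.71). Other genes named above were not checked, among them Slc6a9, which read 2520 in old animal 5 against 4838 to 4984 in the other old animals. Of 84 groups checked over 34 genes 6 passed, where chance gives about 1 in 20. Slc12a1 read 15446 in old control animal 4, with the others at 19697 to 20494. Slc1a1 read 3322 in young animal 5 against 3937 to 4217, and Slc22a17 read 1182 in young animal 3 against 1806 to 2058. Slc22a6 read 20725 in young animal 4, against 9929 to 11860. Slc25a51 read 3706 in old animal 3, against 1667 to 2005, and Slc6a6 read 22945 in calorie-restricted animal 3 on its brightest probe set, against 11030 to 12666.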

How the results depend on the processing

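With age the count of 0 carriers became 1 with the floor doubled and 1 with only the groups compared in the fit (Slc22a30 each time), 2 with a term for the number set (Slc22a30 and Slc22a17) and 3 in numbers 1 to 3 alone (Slc22a17, Slc35c2 and Slc51a), and it ranged from 0 to 1 when each animal was left out (Slc22a30 without calorie-restricted animal 1 or 3). With the diet the count of 0 became 1 with the floor halved (a second probe set of Slc25a51, above the floor on 4 arrays and outside the 71 tested, with 0.95 and adjusted p 0.0173 in limma), 1 with the replicate block and 1 with a term for the number set (Slc22a23 both times) and 2 in numbers 1 to 3 alone (Slc23a3 and Slc9a3r1), and ranged from 0 to 1 with animals left out (Slc22a23 without old animal 5 and Slc38a10 without calorie-restricted animal 3). Against young animals the count of 5 became 7 with a term for the number set (Slc31a1 and Slc22a17 joining) and 2 in numbers 4 and 5 alone. It ranged from 3 to 6 with animals left out. The share of all probe sets that passed under each alternative is not given here. The apical diet median of 0.15 became -0.01 in numbers 4 and 5 alone, and the mitochondrial one of 0.04 became 0.15 with the floor doubled and 0.23 in numbers 4 and 5 alone. The cause was not tested, but the sets alone hold fewer animals. None of the 5 single-gene calls changed sign. Of the 102 single-gene values (34 genes in 3 comparisons) 38 changed sign in at least 1 alternative, all of them values that had not passed. The basolateral diet median ran from -0.08 to 0.16 and the mitochondrial age median from -0.01 to 0.11.

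Same-numbered animals of different groups deviated together with a mean r of 0.261 (13 of 15 pairs over 0.1, lowest -0.0149), other numbers of the same set with 0.267 and numbers of the other set with -0.285, so the numbers were not taken to pair the animals. The replicate block left the age count at 0. Of the 141 member probe sets, those not in the 71 tested were above the floor on fewer than 5 arrays. For the second probe set of Slc25a51 the 4 arrays above it were all of calorie-restricted animals.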
